A study of Arabidopsis thaliana with 10 samples.

Results

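A pair of transgenic Arabidopsis lines, labelled 35S:NTL9-SRDX and 35S:NTL12-SRDX, were compared gene by gene in leaves. The comparison took the 2 libraries of each line, 4 of the 10 libraries in the deposited gene count table, and all genes in it. Of 33602 genes, 20334 had enough counts to be tested. Libraries of pnet2_ab, of 35S:NTL6-SRDX in pnet2_ab and of wild-type Col-0, also 2 each, entered the same fit and are shown as reference levels.

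Both lines carried their transgene in the pnet2_ab background, so the mutation was shared by both sides of the comparison. Messenger RNA came from leaves of 4-week-old soil-grown plants with no treatment. The 35S promoter drives broad expression, and the labels do not say how many independent transformants stand behind a line. For 1 NTL12-SRDX library, the second, the genotype label reads NTL2 while the title reads NTL12, and it was grouped by its title. The series text speaks of triplicates, and 2 libraries per genotype were analysed here. No label says that the 2 libraries of a line came from separate plants, and the p-values therefore reflect nothing beyond the spread among these samples, possibly a technical one.

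NTL proteins are NAC transcription factors tethered to a membrane, from which they can be released to enter the nucleus under stress. PNET2 proteins sit in the inner nuclear membrane. SRDX is a short repression motif, which turns the transcription factor it is fused to into a repressor of its targets. In leaves, NAC and WRKY factors are known for their parts in defence, senescence and stress responses, which are often expressed at the expense of photosynthesis genes.

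The 4 libraries held 23.6, 25.5, 25.9 and 23.5 M counts, within the range of 22.6 to 28.3 M over all 10. Replicates of a line correlated at about 0.981 and 0.982 in log2 CPM (counts scaled to a common library size), above the 0.969 to 0.971 between NTL9-SRDX and NTL12-SRDX libraries. A count of 0 in 1 library allows up to 3 counts at 95% confidence, which covers counting error only. Leaf markers were present, with the 6 mesophyll markers summing to 55900 and 64900 CPM in NTL9-SRDX and to 56000 and 53700 CPM in NTL12-SRDX. The 8 floral organ markers summed to 5.35 and 6.91 CPM in NTL9-SRDX and to 8.15 and 8.69 CPM in NTL12-SRDX, with AP1 at 0 in both lines. The root marker EXPA7 was also at 0 in both lines, and the 6 root markers summed to 89.9 and 160 CPM against 82.2 and 90.7 CPM.

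The lines differed at 3311 genes, 16.3% of those tested, at an adjusted p below 0.05 in edgeR's quasi-likelihood test, and such genes are termed called below. Of these, 1874 (9.22%) were higher in NTL9-SRDX and 1437 (7.07%) were higher in NTL12-SRDX. The differences towards NTL12-SRDX were larger. The median log2 fold change, NTL9-SRDX over NTL12-SRDX, was 0.43 for genes higher in NTL9-SRDX, -0.61 for genes higher in NTL12-SRDX and -0.01 for all tested genes. A difference of 2-fold or more was reached by 100 genes (0.492%) towards NTL9-SRDX and by 373 genes (1.83%) towards NTL12-SRDX. The number higher in NTL9-SRDX was 1181 without its second library, 1188 without the first NTL12-SRDX library and 1086 without the second. The number higher in NTL12-SRDX was 936 and 942 without the first or second NTL9-SRDX library, and 857 and 889 without the first or second NTL12-SRDX library. On the authors' FPKM values, all 3311 called genes differed in the same direction between the line means. These values describe the same libraries, so the match is not separate evidence.

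The genes that separated the lines were largely genes that also separated pnet2_ab from wild type, a contrast that uses none of the 4 libraries. Of the 3494 genes (17.2% of those tested) higher in pnet2_ab than in wild type, 905 were higher in NTL12-SRDX and 50 were higher in NTL9-SRDX. Of the 3422 genes (16.8%) lower in pnet2_ab, 1369 were higher in NTL9-SRDX and 46 were higher in NTL12-SRDX. Among 13418 genes not called in the mutant, 455 were higher in NTL9-SRDX and 486 in NTL12-SRDX. The 905 genes made up 25.9% of the mutant's raised genes and 63% of the genes higher in NTL12-SRDX, and the 1369 genes made up 40% of the mutant's lowered genes and 73.1% of the genes higher in NTL9-SRDX. Without the second NTL9-SRDX library the 905 genes became 599 and the 1369 became 871. Without the first or second NTL12-SRDX library the 905 genes became 589 or 600, and the 1369 became 849 without the second. The 50 genes became 32 without the first wild-type library and 25 or 24 without the first or second NTL12-SRDX library, and the 46 became 23 without the first NTL9-SRDX library and 24 or 25 without the first or second NTL12-SRDX library. Across the 14582 genes with a mean of at least 5 CPM, the 2 log2 fold changes had a Pearson correlation of -0.58 and a Spearman correlation of -0.54, and across all tested genes -0.39 and -0.43. These are descriptions across genes, which are not independent replicates.

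**Figure D1:**
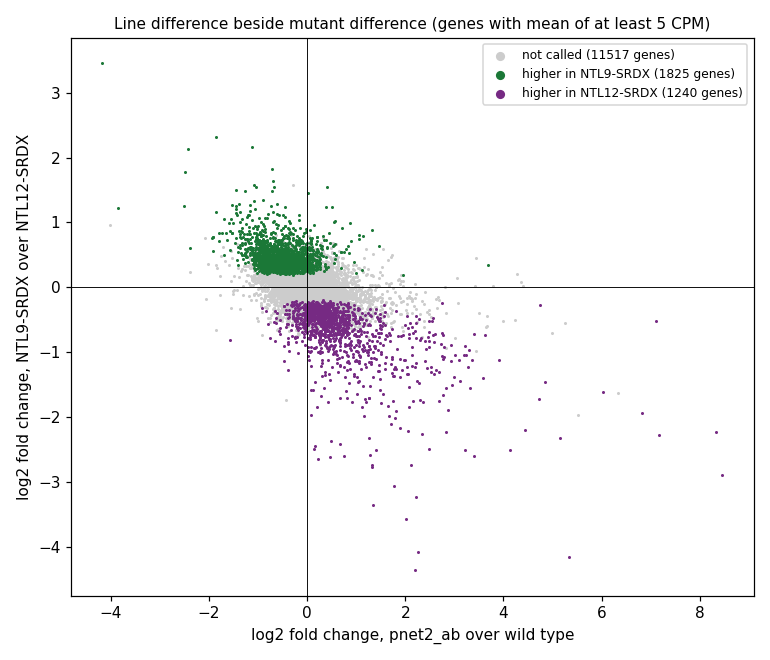
Each point is 1 of 14582 genes with a mean of at least 5 CPM over the 10 libraries, placed by its log2 fold change in pnet2_ab over wild type (horizontal) and in NTL9-SRDX over NTL12-SRDX (vertical). The 1825 genes called higher in NTL9-SRDX lie mostly to the left of 0 and the 1240 genes called higher in NTL12-SRDX mostly to the right.

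The levels of pnet2_ab and wild type place the 2 lines differently. Among the 1437 genes higher in NTL12-SRDX, 946 were called lower in NTL9-SRDX than in pnet2_ab, against 10.8% of all tested genes. For 159 of the 1437 NTL12-SRDX was called higher than pnet2_ab and for 155 it was called lower, against 3.11% and 3.84% of all tested genes. Both NTL12-SRDX libraries lay above all 4 wild-type and pnet2_ab libraries at 584 of the 1437 genes (40.6%), as they did at 11% of all tested genes. Both NTL9-SRDX libraries lay below all 4 at 425 of the 1437 (29.6%), as at 8.56% of all tested genes. Among the 1874 genes higher in NTL9-SRDX, 1327 were called higher in NTL9-SRDX than in pnet2_ab, against 11.6% of all tested genes. NTL12-SRDX was called higher than pnet2_ab at 110 of the 1874 and lower at 121, against 3.11% and 3.84% of all tested genes. Both NTL12-SRDX libraries lay below all 4 wild-type and pnet2_ab libraries at 535 (28.5%), as at 9.22% of all tested genes. Both NTL9-SRDX libraries lay above all 4 at 366 (19.5%), as at 8.74% of all tested genes. The comparisons of a line with pnet2_ab share libraries with each other and with the comparison of the lines, so these counts describe positions and are not separate evidence.

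The gene named NTL9 did not mark its line. NTL9 (AT4G35580) had 27.7 and 22.9 CPM in NTL9-SRDX and 26.9 and 26.6 CPM in NTL12-SRDX, while pnet2_ab had 26.5 and 25.5 CPM and wild type 22.7 and 20.7 CPM. The groups overlapped, and the log2 fold change was -0.08 ± 0.13 (SE, adjusted p = 0.75). The sources used here pair the name NTL12 with no locus, and the lines are told apart here through their labels. None of the 16 tested NTL family genes was higher in NTL9-SRDX, where 9.22% of all tested genes were. In NTL12-SRDX 3 were higher (18.8%, against 7.07% of all tested genes). A list of 16 genes is too small to set against these shares. NAC062, a membrane-bound factor of cold and endoplasmic reticulum stress responses (chromosome 3, 18362443 to 18364913), had 17.5 and 17.5 CPM in NTL9-SRDX and 36.5 and 29.5 CPM in NTL12-SRDX. Both NTL12-SRDX libraries stood above all other libraries of the study (-0.92 ± 0.13, adjusted p = 3.7e-05). NAC091 had 28.9 and 25.9 against 37.7 and 37.6 CPM (-0.46 ± 0.11, adjusted p = 0.0069), and this call was lost without the second NTL9-SRDX library. NAC103, a factor of the unfolded protein response, had 3.06 and 3.17 against 5.31 and 5.82 CPM (-0.84 ± 0.28, adjusted p = 0.045), and its call was lost without any 1 of the 4 libraries of the lines or the first NTL6-SRDX library. The other 12 genes were NAC001, NAC013, NAC014, NAC016, NAC017, NTL8, NAC053, NTM1, NAC069, NAC078, NAC086 and NAC089, with log2 fold changes from -0.87 to 0.48 and adjusted p from 0.068 to 0.95. The median over the 16 genes was -0.28, and with the second NTL9-SRDX library left out 1 of them was called.

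Of the 3 PNET2 family genes, 2 were called lower in pnet2_ab than in wild type and 1 higher. Between the lines, AT3G49840 was higher in NTL12-SRDX, at 6.33 and 6.03 CPM against 3.27 and 3.95 CPM in NTL9-SRDX. Wild type had 6.4 and 9.19 CPM of it and pnet2_ab 3.82 and 5.46 CPM. The difference between the lines was near the threshold (-0.77 ± 0.26, adjusted p = 0.049). Its call was lost without any 1 of the 4 libraries of the lines or the second NTL6-SRDX library. AT1G28760 had 16.9 and 14.3 CPM in NTL9-SRDX and 11.9 and 15.4 CPM in NTL12-SRDX, and AT5G67610 had 12 and 15 CPM against 12 and 10.7 CPM, and neither was called (adjusted p = 0.54 and 0.36). Among 20 tested nuclear envelope genes, NEAP2 alone was called (5%, near the 7.07% of all tested genes higher in NTL12-SRDX). NEAP2 had 5.14 and 6.41 CPM in NTL9-SRDX and 11.4 and 8.98 CPM in NTL12-SRDX (-0.82 ± 0.21, adjusted p = 0.0087). It was not called when the first library of either line was left out.

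WRKY transcription factors differed towards NTL12-SRDX. Throughout, paired values name NTL9-SRDX first and NTL12-SRDX after "against" unless stated. Counts over a gene list are to be read beside the 7.07% of all tested genes higher in NTL12-SRDX and the 9.22% higher in NTL9-SRDX. Of 53 tested WRKY genes, 17 were higher in NTL12-SRDX and 0 in NTL9-SRDX, with a median log2 fold change of -0.56 and with 12 to 18 called when any 1 library was left out. WRKY40, a pathogen-induced regulator of defence (AT1G80840, chromosome 1), had 1.27 and 1.32 CPM in NTL9-SRDX and 26.8 and 26.6 CPM in NTL12-SRDX, beside 4.27 and 8.07 CPM in pnet2_ab, with 1.5 and 1.16 CPM in wild type. NTL9-SRDX was at the wild-type level and NTL12-SRDX above all other libraries, and the log2 fold change of -4.36 ± 0.28 was the largest among genes of at least 5 CPM that the naming rule took (adjusted p = 4e-10). WRKY33, required for camalexin synthesis and resistance to necrotrophic fungi (AT2G38470, chromosome 2), had 14 and 14.1 CPM in NTL9-SRDX, 92.3 and 95.3 CPM in NTL12-SRDX, 34.4 and 46.6 CPM in pnet2_ab, with 17.9 and 14.4 CPM in wild type. It too was higher in NTL12-SRDX than in any other library (-2.74 ± 0.14, adjusted p = 6.5e-12). WRKY53, a regulator of leaf senescence, differed in another way: it had 21 and 20.5 CPM in NTL12-SRDX, 16.4 and 19.2 CPM in pnet2_ab, 4.2 and 3.12 CPM in NTL9-SRDX and 1.7 and 2.1 CPM in wild type. NTL12-SRDX was near the mutant and NTL9-SRDX between mutant and wild type (-2.5 ± 0.19, adjusted p = 7.1e-09). The other WRKY genes called were WRKY4, 11, 15, 18, 22, 25, 26, 28, 39, 46, 47, 48, 57 and 60, with log2 fold changes from -1.71 to -0.46. WRKY70, known for its place in salicylic acid signalling, had 54.8 and 36.1 CPM against 60.4 and 51.2 CPM, and the groups overlapped (adjusted p = 0.48).

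Other rapidly induced transcription factors and signalling genes stood beside the WRKY genes. In the authors' domain annotation, 29 of 100 tested AP2 domain genes (29%) were higher in NTL12-SRDX and 4 (4%) in NTL9-SRDX. Of 77 NAC (NAM) domain genes, 14 (18.2%) were higher in NTL12-SRDX and 0 in NTL9-SRDX. Over all 7804 tested genes with such an annotation, 7.87% were higher in NTL12-SRDX and 8.85% in NTL9-SRDX. ERF6, an ethylene response factor, had 1.44 and 1.81 CPM in NTL9-SRDX and 13.3 and 13.8 CPM in NTL12-SRDX, beside 5.58 and 10.2 CPM in pnet2_ab (-3.05 ± 0.29, adjusted p = 1.9e-07). The lines did not overlap. Both NTL12-SRDX libraries stood above the mutant's, but NTL12-SRDX over pnet2_ab was not called (0.79 ± 0.25, adjusted p = 0.063). ORA47, an AP2 factor that activates jasmonate synthesis genes, had 2.17 and 2.3 CPM against 15.1 and 12.4 CPM, while pnet2_ab had 5.58 and 3.99 CPM and wild type 3.1 and 3.88 CPM. It was therefore high in NTL12-SRDX alone and lower in NTL9-SRDX than in every wild-type and mutant library (-2.62 ± 0.26, adjusted p = 3.7e-07). NTL6-SRDX was lower still, at 1.94 and 1.57 CPM. SZF1, a CCCH zinc-finger protein of the salt and elicitor response, had 15.9 and 15.8 CPM against 108 and 107 CPM, with 30.7 and 41 CPM in pnet2_ab (-2.76 ± 0.14, adjusted p = 1.3e-11). CNI1, a ubiquitin ligase of the carbon and nitrogen response, had 1.95 and 2.43 against 13.7 and 15.7 CPM (-2.74 ± 0.29, adjusted p = 8.3e-07). ZAT10, a zinc-finger repressor of stress responses, had 7.94 and 5.88 against 40.5 and 36.9 CPM (-2.49 ± 0.18, adjusted p = 3.9e-09).

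At 6 genes NTL9-SRDX had no count in either library while NTL12-SRDX averaged at least 1 CPM, and there was no gene of the opposite kind. The ethylene response factor gene RRTF1 (AT4G34410) had 111 and 97 counts in NTL12-SRDX, or 4.21 and 3.98 CPM, and was at least 65.3-fold higher there, taking a floor of 3 counts over both NTL9-SRDX libraries (0.0626 CPM). It had no count in wild type, and in pnet2_ab 0.424 and 0.53 CPM, so only NTL12-SRDX showed a sizeable level. The same bound was 21.5-fold for ELI3-2, annotated as a cinnamyl alcohol dehydrogenase, 19.9-fold for the geranyllinalool synthase gene TPS04, 19.8-fold for the zinc-finger gene ZAT11, 18.9-fold for DXPS1 and 17.3-fold for the cytochrome P450 gene CYP82C2. DXPS1 and ELI3-2 were higher still in pnet2_ab, at 1.96 and 12.2 CPM and at 3.23 and 8.68 CPM. Calls were lost without 1 library for TPS04 (any of the 4), ZAT11 (the second NTL9-SRDX or first NTL12-SRDX library) and CYP82C2 (either NTL9-SRDX library).

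**Figure D2:**
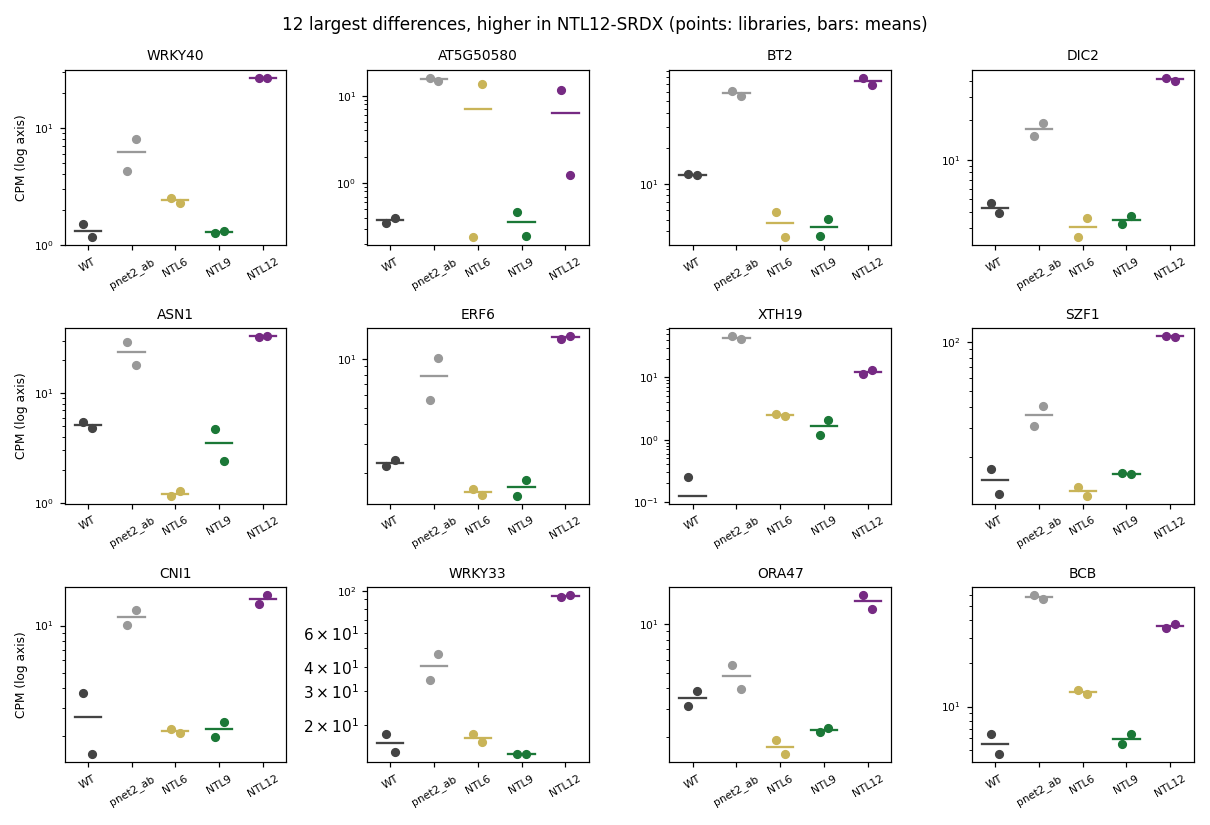
CPM on a logarithmic axis in each of the 10 libraries (points, with group means as bars) for the 12 largest differences towards NTL12-SRDX, each panel having its own scale. NTL12-SRDX lies above both NTL9-SRDX libraries in every panel, and AT5G50580 is split between the libraries of a group. A library with 0 counts, the second wild-type library of XTH19, has no point.

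The DNA letters just before the start of these genes are shown for the 4 of the 24 largest differences whose 250 bases held at least 3 of the motifs searched, because 3 of them stand on the NTL12-SRDX side and the remaining gene, LDOX, on the other. The sequences are RefSeq's, in build TAIR10.1, written 5' to 3' on the strand of the gene. WRKY33 is chr2:16107985-16108234 (plus strand), SZF1 chr3:20775970-20776219 (plus strand), ASN1 chr3:17441432-17441681 (minus strand) and LDOX chr4:12006210-12006459 (minus strand). Capitals mark matches on either strand to the W box bound by WRKY factors (TTGACC or TTGACT), the G box (CACGTG), the GCC box (GCCGCC), the rapid stress response element (CGCGTT), the evening element (AAAATATCT) and the GATA motif (GATAAG).
WRKY33: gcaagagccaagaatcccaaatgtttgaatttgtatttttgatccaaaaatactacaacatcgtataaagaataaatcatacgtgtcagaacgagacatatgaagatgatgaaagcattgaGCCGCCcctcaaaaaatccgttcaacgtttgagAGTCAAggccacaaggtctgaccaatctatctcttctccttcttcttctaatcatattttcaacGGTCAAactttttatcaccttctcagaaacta
SZF1: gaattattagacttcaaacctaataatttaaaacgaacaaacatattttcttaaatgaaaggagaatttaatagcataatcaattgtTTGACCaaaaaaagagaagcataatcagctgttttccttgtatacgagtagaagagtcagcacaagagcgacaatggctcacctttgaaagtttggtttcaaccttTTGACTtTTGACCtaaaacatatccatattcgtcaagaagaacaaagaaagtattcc
ASN1: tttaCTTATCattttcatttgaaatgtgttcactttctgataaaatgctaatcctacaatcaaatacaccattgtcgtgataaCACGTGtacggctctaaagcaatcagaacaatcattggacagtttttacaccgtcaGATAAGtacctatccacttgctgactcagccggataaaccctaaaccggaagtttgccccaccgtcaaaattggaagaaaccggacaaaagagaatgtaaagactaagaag
LDOX: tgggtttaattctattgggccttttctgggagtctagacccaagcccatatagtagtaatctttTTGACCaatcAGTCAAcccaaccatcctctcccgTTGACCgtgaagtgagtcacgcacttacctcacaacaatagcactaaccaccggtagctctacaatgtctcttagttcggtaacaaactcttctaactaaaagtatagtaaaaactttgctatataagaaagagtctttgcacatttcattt

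WRKY33 held 2 W boxes on its minus strand, 96 and 32 bases before the start, and a GCC box at 129. SZF1 held 3 W boxes at 163, 57 and 50 bases, the last pair 1 base apart and not overlapping. ASN1 held a G box and 2 GATA motifs but no W box of these letters, and LDOX held 3 W boxes at 186, 176 and 152 bases while it was higher in NTL9-SRDX. WRKY40 had no match in its 250 bases. Over all 20220 tested genes with such a region, 27.9% held a W box. The share was 43.7% (163 of 373) among genes higher in NTL12-SRDX by 2-fold or more and 28% (28 of 100) among genes higher in NTL9-SRDX by 2-fold or more. The GATA motif was held by 18.2% and 8% of these 2 groups and by 12.4% of all, and the rapid stress response element by 5.63%, 1% and 2.84%. The G box was held by 8.31%, 10% and 7.2%, the GCC box by 2.68%, 2% and 2%, and the evening element by 3.75%, 4% and 2.53%. A match of letters is not a bound site, and these shares were not tested.

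Pattern-triggered immunity and salicylic acid regulators were called in 1 direction. Of 28 tested receptors and early signalling genes, 8 (28.6%, against 7.07% of all tested genes) were higher in NTL12-SRDX and 0 in NTL9-SRDX, with a median of -0.34. They were the receptor kinase genes SOBIR1, LYK5, BIR1 and PEPR1, the cytoplasmic kinase genes BIK1 and PBL1, the calcium-dependent kinase gene CPK28 and the MAP kinase gene MPK3. BIK1 had 15.2 and 12.9 CPM in NTL9-SRDX, 23.3 and 20.6 CPM in NTL12-SRDX, 27.6 and 28.9 CPM in pnet2_ab, with 14.6 and 14.7 CPM in wild type (-0.65 ± 0.13, adjusted p = 0.0017). Here NTL9-SRDX was at the wild-type level and NTL12-SRDX between wild type and mutant. Of 12 salicylic acid regulators 5 were higher in NTL12-SRDX, 2 when the second NTL9-SRDX library was removed and 3 without either NTL12-SRDX library. CBP60G, an activator of salicylic acid synthesis genes, had 10.3 and 9.09 CPM against 36.1 and 32.3 CPM, with 20.7 and 27.9 CPM in pnet2_ab (-1.82 ± 0.17, adjusted p = 1.3e-07).

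Of 5 salicylic acid synthesis genes neither edgeR nor DESeq2 called any, with 0 at an unadjusted p below 0.05, a number too small to set against the 7.07% of all tested genes. ICS1, the isochorismate synthase gene, had 13.1 and 11.3 CPM in NTL9-SRDX and 12.3 and 9.18 CPM in NTL12-SRDX (0.18 ± 0.17, adjusted p = 0.55). The defence hubs PAD4 and EDS1 were not called either, with PAD4 at 13.8 and 10.1 CPM against 14.1 and 14 CPM (adjusted p = 0.4) and EDS1 at 21.1 and 13.4 CPM against 16 and 21.3 CPM (adjusted p = 0.75). The pathogenesis-related gene PR1 had 1.19 and 0.123 CPM against 2.84 and 2.25 CPM, a difference of -1.97 ± 1.49 that was not called (adjusted p = 0.43). The glucanase gene PR2 had 7.09 and 3 CPM compared with 9.48 and 10.5 CPM (adjusted p = 0.2) and PR5 had 12.8 and 10.3 CPM compared with 13.7 and 13.2 CPM (adjusted p = 0.66). For PAD4, PR1, PR2 and PR5 both NTL12-SRDX libraries lay above both NTL9-SRDX libraries, as they did at 28.1% of all tested genes. The calls of PR1 and PR2 depended on pnet2_ab, whose libraries had 2.81 and 163 CPM of PR1. With only the 4 libraries of the lines both genes were called higher in NTL12-SRDX (adjusted p = 0.031 for PR1 and 0.015 for PR2), as they were without the first pnet2_ab library (0.0014 and 0.0026) or the second (0.0074 and 0.0048). With 1 library left out the log2 fold change ranged from -4.31 to -1.1 for PR1 and from -1.72 to -0.49 for PR2. In the wider list of systemic acquired resistance and PR genes, 3 of 17 were higher in NTL12-SRDX and 0 in NTL9-SRDX, with 1 of 17 without the first NTL12-SRDX library and 5 without either pnet2_ab library.

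Receptor-like kinases of the CRK family (cysteine-rich, a large group of stress-responsive kinases) were higher in NTL12-SRDX at 8 of 37 (21.6%, against 7.07% of all tested genes) and in NTL9-SRDX at 3 (8.11%, near the 9.22% of all tested genes). CRK13 had 1.32 and 1.11 CPM in NTL9-SRDX, 6.94 and 6.93 CPM in NTL12-SRDX and 25 and 22.7 CPM in pnet2_ab (-2.51 ± 0.23, adjusted p = 1.3e-07), so that NTL12-SRDX stayed far below the mutant. CRK21 went the other way, with 83.2 and 83.7 CPM against 54.1 and 56.9 CPM (0.59 ± 0.08, adjusted p = 3.4e-05). CRK genes lie in clusters of similar copies, and how shared reads were counted is not given in the sources used here. Among 20 NLR immune receptors 4 (20%, against 7.07% of all tested genes) were higher in NTL12-SRDX, ADR1-L1, ADR1-L2, ZAR1 and RPS4. RPP13 alone (5%, against 9.22%) was higher in NTL9-SRDX, a call lost without the second NTL9-SRDX or the first NTL12-SRDX library.

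In jasmonate and ethylene defence, 6 of 15 jasmonate response genes were higher in NTL12-SRDX and 0 in NTL9-SRDX, with a median of -0.9. With 1 library left out, 4 to 9 were called towards NTL12-SRDX, and 1 was called towards NTL9-SRDX without the first NTL9-SRDX or either pnet2_ab library. MYC2, the leading jasmonate transcription factor, had 38.5 and 32.3 CPM in NTL9-SRDX and 60.7 and 59.9 CPM in NTL12-SRDX, where pnet2_ab had 28.4 and 33.8 CPM and wild type 41.3 and 30.4 CPM (-0.77 ± 0.13, adjusted p = 0.00016). NTL12-SRDX therefore lay above both reference genotypes, while NTL9-SRDX lay within their range. LOX4, a lipoxygenase of jasmonate synthesis, showed the same order, with 5.26 and 3.86 CPM against 14.3 and 17 CPM and with 3.49 and 6.81 CPM in pnet2_ab (-1.77 ± 0.26, adjusted p = 3.9e-05). The repressor gene JAZ1 had 17.8 and 16.4 against 44.7 and 44.5 CPM (-1.38 ± 0.16, adjusted p = 2.4e-06), while JAZ6 was higher in NTL9-SRDX (0.51 ± 0.09, adjusted p = 0.00057). The vegetative storage protein genes, common markers of the response, had differences of opposite sign, and only VSP1 was called in the fit used throughout. VSP1 had 4.25 and 7.15 against 10.2 and 11.1 CPM (-0.9 ± 0.22, adjusted p = 0.0075). VSP2 had 18.5 and 34.8 CPM in NTL9-SRDX and 15.9 and 17.1 CPM in NTL12-SRDX (0.69 ± 0.27, adjusted p = 0.085). Both NTL9-SRDX libraries lay above both NTL12-SRDX libraries, as they did at 27.3% of all tested genes. VSP2 was called with the replicate block (adjusted p = 0.033), with only the 4 libraries of the lines (0.014), and without the first or second pnet2_ab library (0.017 and 0.016) or the first NTL9-SRDX library (0.0061), and its log2 fold change ranged from 0.17 to 1.09 with 1 library left out. The defensin gene PDF1.2 had 1.7 and 2.06 CPM compared with 2.05 and 2.99 CPM (adjusted p = 0.45). Of 12 ethylene and jasmonate defence genes, ERF6, ERF104, ERF5 and the defensin gene PDF1.4 were higher in NTL12-SRDX, and the same count of 4 was found with any 1 library left out.

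Indole glucosinolate modification showed a run of neighbouring genes. The methyltransferase genes IGMT1, IGMT3, IGMT2 and IGMT4 lie in a row on chromosome 1 (7386839 to 7400605, TAIR10) and all 4 were higher in NTL12-SRDX. IGMT3 had 0.509 and 1.03 CPM in NTL9-SRDX and 5.35 and 5 CPM in NTL12-SRDX (-2.74 ± 0.44, adjusted p = 0.00013), and IGMT1 had 5.99 and 5.76 against 12.9 and 15.9 CPM (-1.29 ± 0.2, adjusted p = 7.5e-05). IGMT4, the member with most counts, had 297 and 304 against 373 and 368 CPM (-0.3 ± 0.07, adjusted p = 0.004). The lines did not overlap at any of the 4, and both NTL12-SRDX libraries lay above both NTL9-SRDX libraries at 28.1% of all tested genes. The 4 are similar copies whose shared reads may be split between them. CYP81F2, the P450 that hydroxylates indole glucosinolates, had 1.83 and 1.44 against 6.79 and 8.48 CPM (-2.22 ± 0.3, adjusted p = 2.1e-05), and the regulator MYB51 was higher in NTL12-SRDX as well (-1.17 ± 0.17, adjusted p = 4.6e-05). In all, 6 of 24 camalexin and indole glucosinolate genes were higher in NTL12-SRDX (25%) and 2 in NTL9-SRDX (8.33%, near the 9.22% of all tested genes). The tryptophan synthase gene TSA1 and MYB34, another regulator of the pathway, were higher in NTL9-SRDX (0.29 and 0.42, adjusted p = 0.036 and 0.028), a number that was 1 without the second NTL9-SRDX library and 0 without any other library of the lines. All 5 of 24 tested aliphatic glucosinolate genes that were called were higher in NTL9-SRDX, among them BCAT3 with 179 and 165 CPM against 134 and 115 CPM (0.46 ± 0.08, adjusted p = 0.00024), and this number was 3 without the first library of either line and 9 without the second NTL9-SRDX library.

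Cold-regulated genes included another row of neighbours. The regulators CBF2, CBF3 and CBF1 and the splicing factor gene RS40 are adjacent on chromosome 4 (13015277 to 13027484) and were higher in NTL12-SRDX. CBF1 had 1.61 and 2.18 CPM in NTL9-SRDX, 7.17 and 7.83 CPM in NTL12-SRDX, 7.18 and 5.58 CPM in pnet2_ab, with 1.45 and 1.61 CPM in wild type (-1.98 ± 0.3, adjusted p = 7.8e-05). NTL9-SRDX was near wild type and NTL12-SRDX near the mutant. CBF3 differed less, with 13.1 and 15.4 CPM against 22.1 and 20.6 CPM (-0.59 ± 0.14, adjusted p = 0.0046), and wild type, at 24 and 21.6 CPM, was as high as NTL12-SRDX. In all, 10 of 21 cold response genes were higher in NTL12-SRDX and 1, COR15A, in NTL9-SRDX, and the 10 became 6 without the first library of either line. COR15A was not called by DESeq2's Wald test, nor without the second NTL9-SRDX or either NTL12-SRDX library. Of 27 abscisic acid genes, 7 were higher in NTL12-SRDX and ABA1 was higher in NTL9-SRDX. NCED3, the rate-limiting dioxygenase of abscisic acid synthesis, had 6.58 and 8.8 against 23.7 and 26.7 CPM (-1.71 ± 0.16, adjusted p = 1.6e-07). The 7 became 3 without the first NTL9-SRDX library.

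Senescence genes were higher in NTL12-SRDX at 11 of 26 and in NTL9-SRDX at 0, with a median of -0.54 and with 9 to 11 called when 1 library was left out. NAP, a NAC factor that promotes senescence, had 7.51 and 7.73 CPM in NTL9-SRDX, 25 and 26.1 CPM in NTL12-SRDX, 12.3 and 10.1 CPM in pnet2_ab, with 3.5 and 3.21 CPM in wild type (-1.74 ± 0.17, adjusted p = 1.8e-07). NTL12-SRDX was the highest group and wild type the lowest. SEN1, a dark-inducible senescence marker, had 10.2 and 8.3 against 43.6 and 42.1 CPM (-2.21 ± 0.21, adjusted p = 2.4e-07). SAG13 had 1.1 and 0.946 against 4.85 and 2.95 CPM (-1.93 ± 0.65, adjusted p = 0.045), and its call was lost without any 1 of the 4 libraries. Autophagy genes showed small differences of the same sign. Of 24 tested, 7 (29.2%, against 7.07% of all tested genes) were higher in NTL12-SRDX and 0 in NTL9-SRDX. ATG8E was the clearest, at 31.3 and 30.5 CPM against 43.5 and 52.4 CPM (-0.63 ± 0.11, adjusted p = 0.00031). These 7 became 4 and 3 without the first or second NTL9-SRDX library and 1 without the first NTL12-SRDX library.

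Genes that respond to carbon and nitrogen supply were among the largest differences. BT2, a BTB and TAZ domain scaffold protein (AT3G48360, chromosome 3), had 3.65 and 5.06 CPM in NTL9-SRDX, 78.9 and 68.5 CPM in NTL12-SRDX, 60.9 and 55.1 CPM in pnet2_ab, with 12.1 and 11.9 CPM in wild type (-4.08 ± 0.17, adjusted p = 5.3e-13). NTL9-SRDX was thus below wild type, and NTL12-SRDX slightly above the mutant. The difference of NTL12-SRDX over pnet2_ab was not called (0.34 ± 0.14, adjusted p = 0.15). NTL6-SRDX, at 5.83 and 3.53 CPM, was about as low as NTL9-SRDX. Its relative BT5 had 3.65 and 4.28 against 21.5 and 23.1 CPM (-2.49 ± 0.2, adjusted p = 1.2e-08). ASN1, a glutamine-dependent asparagine synthetase gene raised by sugar shortage and darkness, had 4.67 and 2.38 against 33 and 33.3 CPM (-3.23 ± 0.24, adjusted p = 5.6e-09), with 29.6 and 18.3 CPM in pnet2_ab. The trehalose phosphate synthase genes TPS8, TPS9, TPS10 and TPS11 were all higher in NTL12-SRDX, TPS11 at 51.2 and 54 CPM against 110 and 107 CPM (-1.05 ± 0.08, adjusted p = 1.7e-08). In the sugar starvation and phosphate list 9 of 23 genes were higher in NTL12-SRDX and 4 in NTL9-SRDX, the latter being the phosphate and sulphur genes SPX1, SQD1, SQD2 and LSU2, which became 2 without the first library of either line. The nitrate and nitrogen list, with a median of -0.12, held 7 of 25 genes higher in NTL9-SRDX (4 without the first NTL12-SRDX library) and 4 higher in NTL12-SRDX. The 7 were NIA2, NIR1, GLN2 and GLU1, which act in nitrate reduction and ammonium assimilation, the transporter gene NRT1.1, the nitrilase gene NIT4, and HRS1, which was detected in the second NTL9-SRDX library (0.946 CPM) but in no other library of the lines. The 4 were BT1, BT2, BT5 and ASN1.

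Mitochondrial stress genes were led by DIC2, a mitochondrial dicarboxylate carrier (AT4G24570, chromosome 4), at 3.23 and 3.7 CPM in NTL9-SRDX and 42.4 and 39.7 CPM in NTL12-SRDX, with 15.3 and 19.2 CPM in pnet2_ab (-3.56 ± 0.19, adjusted p = 1.7e-11). The mitochondrial outer membrane gene OM66 was higher in NTL12-SRDX too, at 6.28 and 6.41 CPM against 14.8 and 15.9 CPM (-1.27 ± 0.17, adjusted p = 1.4e-05). The alternative oxidase gene AOX1A, the usual marker of this response, was higher in NTL9-SRDX (0.35, adjusted p = 0.039), as was the NADH dehydrogenase gene NDA1 (1.05 ± 0.19, adjusted p = 0.00041). Of 13 tested genes 4 were higher in NTL12-SRDX and 2 in NTL9-SRDX, the latter 1 without any of the 4 libraries of the lines. In the unfolded protein response, bZIP60, a membrane-bound regulator, was higher in NTL12-SRDX at 31.1 and 32.1 CPM against 17.2 and 18.3 CPM (-0.83 ± 0.12, adjusted p = 2.7e-05). The chaperone gene BIP1 had 254 and 273 CPM in NTL9-SRDX and 236 and 232 CPM in NTL12-SRDX and was not called (0.17 ± 0.07, adjusted p = 0.11). In all, 2 of 21 genes of that response were higher in NTL12-SRDX (9.52%, near the 7.07% of all tested genes). Not both were called without the first NTL6-SRDX library or any 1 library of the lines.

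Of 6 lipid transfer protein genes, LTP2, LTP3 and LTP4 were higher in NTL12-SRDX and LTP6 was higher in NTL9-SRDX, the call of LTP6 being lost without the second NTL9-SRDX, either NTL12-SRDX or either NTL6-SRDX library. LTP2 (AT2G38530) had 82.6 and 82.4 CPM in NTL9-SRDX, 430 and 398 CPM in NTL12-SRDX, 745 and 685 CPM in pnet2_ab, with 18.9 and 21 CPM in wild type. The 4 genotypes fell into 4 separate levels, and the difference between the lines was -2.33 ± 0.08 (adjusted p = 4.9e-14). LTP3 and LTP4 differed by -2.27 ± 0.11 and -2.23 ± 0.25 (adjusted p = 2.4e-12 and 1.9e-06), but they are close copies whose reads may be shared. XTH19, a cell wall xyloglucan endotransglucosylase gene, had 1.19 and 2.1 CPM against 11.2 and 13.3 CPM, with 45.8 and 41.1 CPM in pnet2_ab but 0.25 and 0 CPM in wild type (-2.89 ± 0.26, adjusted p = 7.3e-08). BCB, a blue copper protein gene induced by stress, had 5.48 and 6.45 CPM against 35 and 37.7 CPM, with 60.2 and 56.1 CPM in pnet2_ab (-2.6 ± 0.15, adjusted p = 4.7e-11). In each of these 5 genes the level in NTL12-SRDX lay below that in pnet2_ab. AT5G50580, a SUMO-activating enzyme subunit gene, was taken by the rule for the largest differences with 0.467 and 0.247 CPM against 11.5 and 1.23 CPM, but the gene has a near-identical copy, its NTL6-SRDX libraries were split in the same way (0.238 and 13.8 CPM), and its call (-4.15 ± 1.11, adjusted p = 0.012) was lost without the first NTL12-SRDX or second NTL9-SRDX library.

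Carbon fixation genes were the clearest group on the NTL9-SRDX side. Of 21 tested Calvin cycle genes 18 were higher in NTL9-SRDX and 1, CP12-3, in NTL12-SRDX, with a median of 0.5, and 17 to 19 were called towards NTL9-SRDX when any 1 library was left out. FBA1, a plastid aldolase gene, had 894 and 1080 CPM in NTL9-SRDX, 599 and 519 CPM in NTL12-SRDX, 490 and 515 CPM in pnet2_ab, with 1360 and 1240 CPM in wild type (0.82 ± 0.08, adjusted p = 4.2e-07). NTL12-SRDX was near the mutant and NTL9-SRDX between mutant and wild type. GAPB, a glyceraldehyde phosphate dehydrogenase subunit gene, had 1990 and 2360 against 1370 and 1260 CPM (0.73 ± 0.08, adjusted p = 9.1e-07), and CA1, the main plastid carbonic anhydrase gene, had 2910 and 3470 against 1940 and 1820 CPM (0.77 ± 0.08, adjusted p = 3.6e-07). The Rubisco small subunit gene RBCS1A differed less, at 14700 and 16200 CPM against 12500 and 12100 CPM (0.33 ± 0.06, adjusted p = 0.00032). Of the 6 mesophyll markers 4 (LHCB2.1, RBCS1A, RBCS3B and CA1, of which the last 3 are also on the Calvin cycle list) were higher in NTL9-SRDX, 3 of 6 epidermis markers were too (1 without the first library of either line), and 0 of 10 vasculature and 0 of 6 guard cell markers were called by edgeR or DESeq2, with 3 and 1 at an unadjusted p below 0.05. The part of tissue makeup in these values was not tested, and in whole leaves fewer cells of a type and less RNA per cell cannot be told apart.

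Photosystem and antenna genes differed less evenly. Of 49 tested, 15 were higher in NTL9-SRDX and 1 in NTL12-SRDX, with a median of 0.11, and the 15 became 24 and 9 without the first or second NTL9-SRDX library and 10 without the second NTL12-SRDX library. The 1 became 4 without the second NTL9-SRDX library. LHCB4.3, a photosystem II antenna gene, had 24.1 and 31 CPM in NTL9-SRDX, 8.95 and 7.05 CPM in NTL12-SRDX, 7.01 and 8.36 CPM in pnet2_ab, with 44.8 and 41.7 CPM in wild type (1.78 ± 0.16, adjusted p = 5.7e-08). PSBS, which is needed for heat dissipation of excess light, had 1300 and 1430 against 827 and 795 CPM (0.75 ± 0.07, adjusted p = 7.5e-08). LHB1B1, a major antenna gene, was the 1 called towards NTL12-SRDX, with 5000 and 5700 CPM in NTL9-SRDX and 9190 and 8130 CPM in NTL12-SRDX, above every library of the other genotypes (-0.7 ± 0.08, adjusted p = 4.9e-06). Antenna genes of this type occur in near-identical copies, and its value is uncertain for that reason. LHCB1.3, another such copy, overlapped between the lines at 20200 and 24500 CPM against 24900 and 23800 CPM (adjusted p = 0.26).

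Flavonoid genes were higher in NTL9-SRDX at 9 of 20 tested and in NTL12-SRDX at 0, with a median of 0.5, and 6 to 9 were called when 1 library was left out. CHS, chalcone synthase, the entry enzyme of the pathway, had 64.6 and 61.7 CPM in NTL9-SRDX, 26.6 and 27.1 CPM in NTL12-SRDX, 37.3 and 42.9 CPM in pnet2_ab, with 29 and 27.2 CPM in wild type. It was therefore raised above wild type and pnet2_ab in NTL9-SRDX and near the wild-type level in NTL12-SRDX (1.23 ± 0.1, adjusted p = 1.8e-08). NTL6-SRDX, at 56.5 and 61.2 CPM, was about as high as NTL9-SRDX. LDOX, the anthocyanidin synthase gene, had 7.64 and 7.4 against 2.05 and 1.27 CPM (2.17 ± 0.29, adjusted p = 1.8e-05). DFR, dihydroflavonol reductase, had 6.92 and 3.62 against 1.52 and 1.84 CPM (1.65 ± 0.33, adjusted p = 0.0014), and TT19, a glutathione transferase of anthocyanin transport, had 5.31 and 3.99 against 1.14 and 1.84 CPM (1.64 ± 0.32, adjusted p = 0.00097). These 3 genes were near the wild-type levels in NTL9-SRDX, and within or below the mutant's range in NTL12-SRDX. All 3 were higher in NTL6-SRDX than in NTL9-SRDX, LDOX at 13 and 15.1 CPM, DFR at 10.7 and 9.66 CPM and TT19 at 7.61 and 9.05 CPM.

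**Figure D3:**
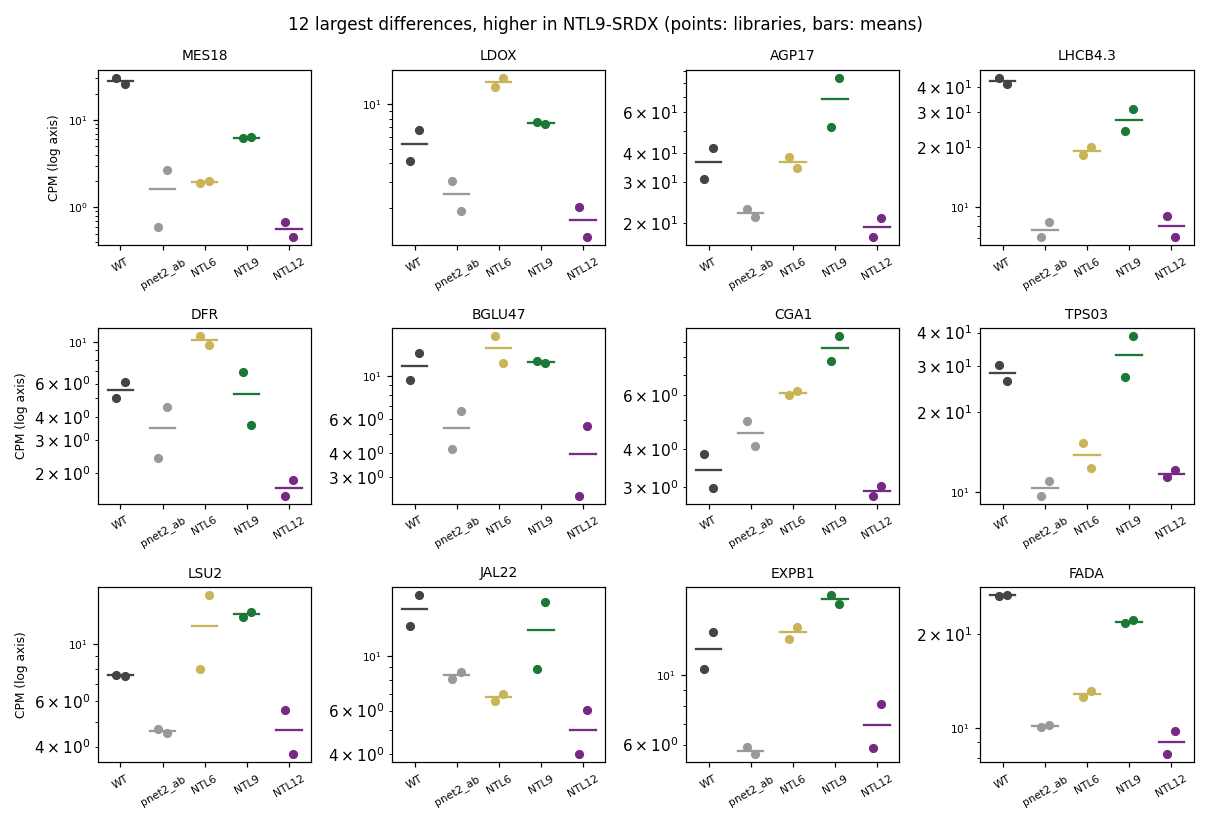
CPM on a logarithmic axis in each of the 10 libraries (points, with group means as bars) for the 12 largest differences towards NTL9-SRDX, each panel having its own scale. Both NTL9-SRDX libraries lie above both NTL12-SRDX libraries in every panel, and for MES18 both lines lie well below wild type.

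Single genes of other kinds led the NTL9-SRDX side. MES18, a methylesterase family gene (AT5G58310, chromosome 5), had 6.24 and 6.37 CPM in NTL9-SRDX, 0.683 and 0.451 CPM in NTL12-SRDX, 0.587 and 2.65 CPM in pnet2_ab, with 30.6 and 25.8 CPM in wild type (3.46 ± 0.42, adjusted p = 4.9e-06). NTL9-SRDX lay between mutant and wild type, and NTL12-SRDX at the mutant's lower end. AGP17, an arabinogalactan protein gene, had 52 and 84.4 CPM against 17.4 and 21.1 CPM and exceeded every library of the other genotypes in NTL9-SRDX (1.83 ± 0.17, adjusted p = 1.9e-07). CGA1, a GATA factor that promotes chloroplast development, had 7.77 and 9.37 CPM against 2.81 and 3.03 CPM, with 3.85 and 2.99 CPM in wild type (1.55 ± 0.25, adjusted p = 0.00012). The remaining genes of the 12 were LDOX, LHCB4.3, DFR, BGLU47, TPS03, LSU2, JAL22, EXPB1 and FADA, with log2 fold changes from 1.28 to 2.17. Another run of 4 neighbours, AT5G19750, AT5G19760 and the alpha-tubulin genes TUA3 and TUA5 on chromosome 5 (6677069 to 6689171), was higher in NTL9-SRDX by 0.24 to 0.4 on the log2 scale. TUA5 had 295 and 315 against 235 and 253 CPM (0.32 ± 0.07, adjusted p = 0.0023). The first pair of these genes overlap on opposite strands, and the tubulin genes are close copies, so their values are uncertain. Among 21 expansins, which loosen cell walls, 6 (28.6%) were higher in NTL9-SRDX and 1 (4.76%) in NTL12-SRDX. Among 27 genes with an elongation factor GTPase domain 15 (55.6%) were higher in NTL9-SRDX and 0 in NTL12-SRDX. Of all tested genes, 9.22% were higher in NTL9-SRDX and 7.07% in NTL12-SRDX. The ferritin genes FER1, FER3 and FER4, which store iron, were also higher in NTL9-SRDX, FER1 at 57.3 and 64.3 CPM against 35.8 and 34.1 CPM, above the 28.7 and 25.5 CPM of pnet2_ab (0.8 ± 0.12, adjusted p = 3.9e-05).

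The 10 clock genes called, of 24 tested, split by the time of day at which they are known to peak. CCA1, PRR9, LNK1 and LNK2, genes of the morning, were higher in NTL9-SRDX, while FKF1, PRR5, PRR3, LUX, TOC1 and ELF3, most of which peak in the afternoon or evening, were higher in NTL12-SRDX. CCA1 had 16.4 and 16.4 CPM in NTL9-SRDX and 10.3 and 9.35 CPM in NTL12-SRDX (0.74 ± 0.19, adjusted p = 0.0097), with 11.1 and 7 CPM in wild type. FKF1 had 59.1 and 61.2 against 103 and 94.1 CPM (-0.72 ± 0.08, adjusted p = 2e-06), with 77.6 and 77.9 CPM in wild type. GI, PRR7 and LHY were not called, GI at 178 and 184 CPM against 185 and 187 CPM (adjusted p = 0.78) and LHY near 1 CPM in all libraries. For LHY and its uncalled relatives RVE1, RVE2, RVE4 and RVE6 the log2 fold changes were -0.23, -0.7, -0.82, -0.04 and -0.19. RVE8, also uncalled, had 0.73. The split by time of day therefore describes the called genes only. The 6 genes higher in NTL12-SRDX became 2 and 3 without its first or second library and 3 without the second NTL9-SRDX library. The labels give no hour of harvest, and its part in these and other differences was not tested.

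**Figure D4:**
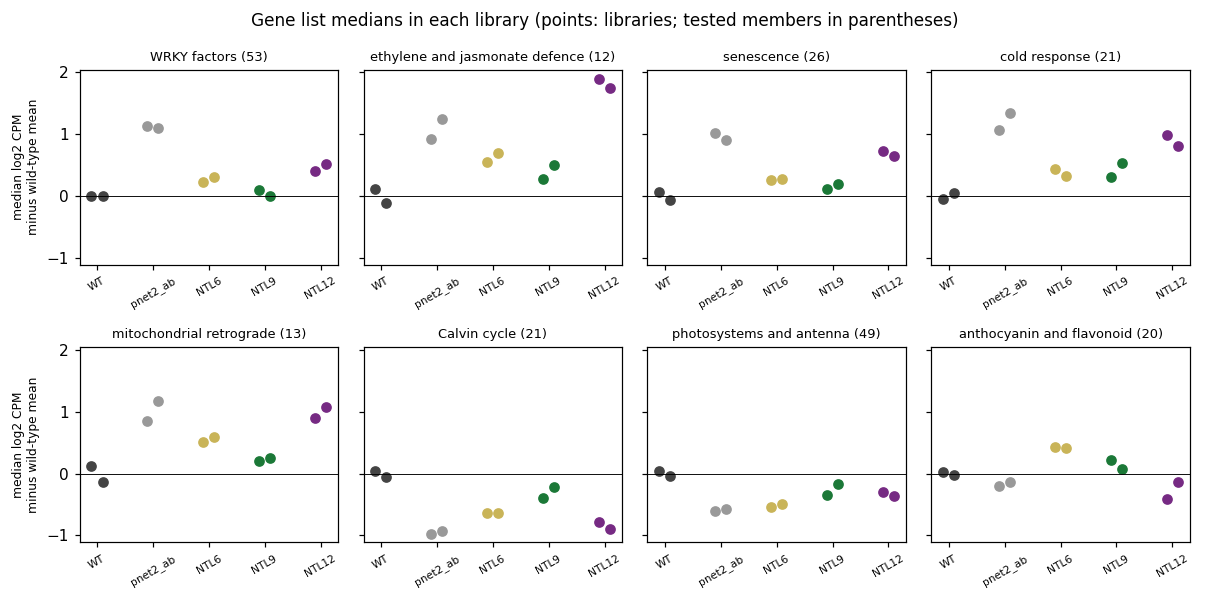
Median over the tested members of 8 gene lists of log2 CPM minus the wild-type mean, in each library (points) of the 5 genotypes. For the WRKY, ethylene and jasmonate, senescence, cold and mitochondrial lists both NTL12-SRDX libraries lie above both NTL9-SRDX libraries, at 0.41 and 0.51 against 0.1 and 0 for WRKY, and for the Calvin cycle they lie below, at -0.79 and -0.89 against -0.39 and -0.22.

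None of 14 heat shock genes and 12 flowering and floral repressor genes was called by edgeR or DESeq2, with 1 and 0 at an unadjusted p below 0.05, and FLC, the floral repressor, had 5.69 and 4.6 CPM in NTL9-SRDX and 4.89 and 5.78 CPM in NTL12-SRDX (-0.05 ± 0.31, adjusted p = 0.95). Among 28 cell division genes, with a median of 0.02, 3 (10.7%) were higher in NTL9-SRDX, near the 9.22% of all tested genes. They were MCM2, MCM3 and PCNA1, which act in DNA replication, with differences of 0.42 to 0.45 on the log2 scale. None of these calls held without the second NTL12-SRDX library. Those of MCM3 and PCNA1 were also lost without the first NTL9-SRDX library, and that of MCM2 without the second. Of 30 gibberellin and brassinosteroid genes, 11 (36.7%) were higher in NTL12-SRDX, against 7.07% of all tested genes, and 3 (10%) were higher in NTL9-SRDX, near the 9.22% of all tested genes. The DELLA genes, repressors of gibberellin signalling, were divided, with RGL3 higher in NTL12-SRDX (-2, adjusted p = 0.0037) and GAI and RGL2 higher in NTL9-SRDX, RGL2 by 1.45 ± 0.32 (adjusted p = 0.0032), a call lost without the first NTL12-SRDX library. The 11 became 5 without the first NTL12-SRDX or the second NTL9-SRDX library and 6 without the second NTL12-SRDX library, and the 3 became 1 when each of these 3 libraries was left out. Called genes were spread over the 5 nuclear chromosomes, with 8.82% to 9.87% of each higher in NTL9-SRDX and 6.37% to 7.92% higher in NTL12-SRDX.

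**Figure D5:**
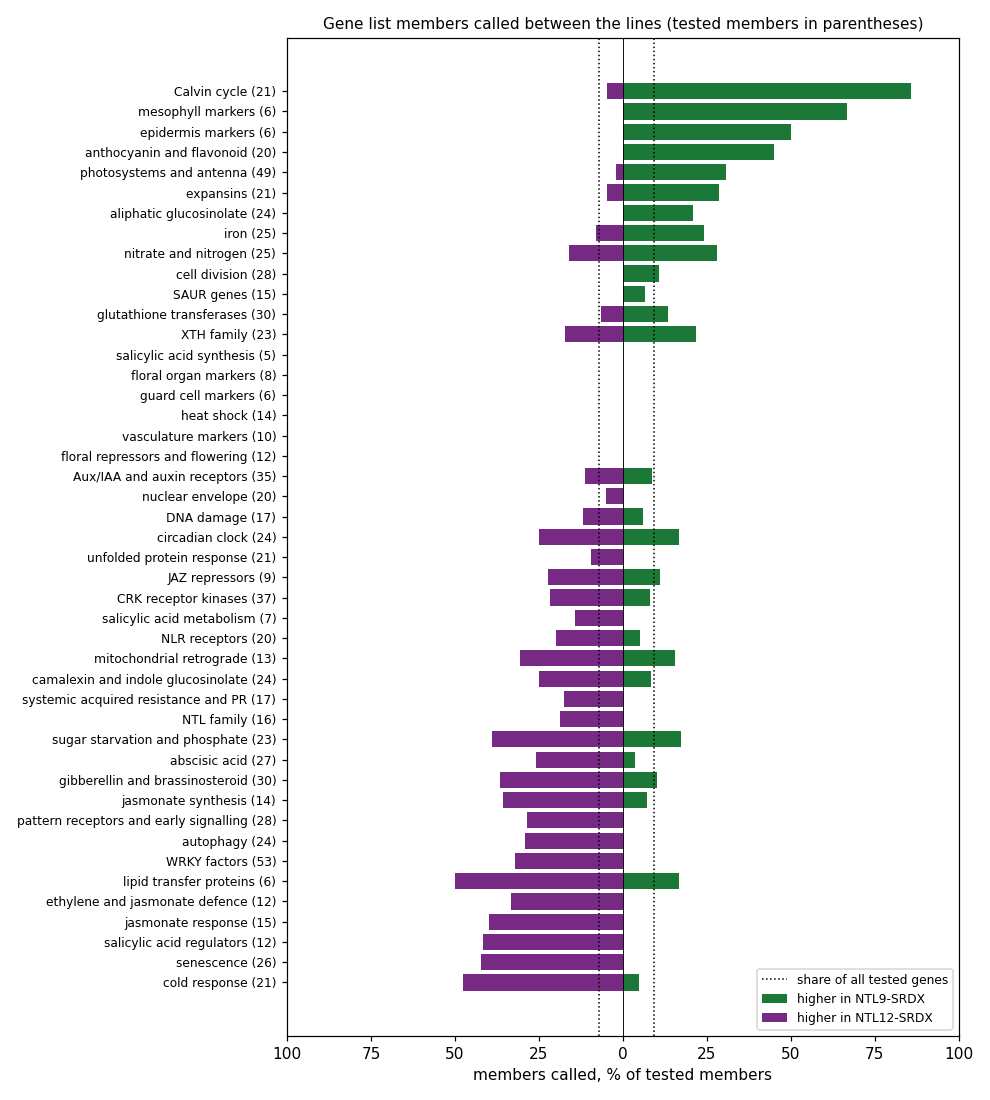
Share of the tested members of each gene list called higher in NTL9-SRDX (right) or in NTL12-SRDX (left), with the shares of all tested genes as dotted lines at 9.22% and 7.07%. The Calvin cycle list reaches 85.7% to the right, and the cold response list reaches 47.6% and the senescence list 42.3% to the left.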

How the data were processed

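Messenger RNA was sequenced from strand-specific libraries of leaves, per the labels. The submitters' processing notes list HISAT2 2.0.4 and HTSeq 0.6.1p1 along with TAIR10. The authors deposited whole-number counts per gene, with gene length and TAIR10 coordinates, and FPKM values (scaled to gene length and library size) of the same genes, which were used here only to compare directions. How strand and shared reads were handled in counting is not given in the sources used here, so overlapping genes and close copies carry that uncertainty.

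The counts of all 10 libraries were fitted together in R 4.3.3 with edgeR 4.0.16, 1 coefficient per genotype, TMM scaling and filterByExpr by group. The lines were contrasted with the quasi-likelihood F-test and Benjamini-Hochberg adjustment over 20334 genes at 0.05. The standard error is the absolute log2 fold change divided by the square root of F. Levels are CPM with TMM factors. The script was tested on simulated data. DESeq2 1.42.0, other scaling and filters, a replicate block and leaving out each library were tried. Replicate numbers did not pair samples (correlations of deviations -0.038 to 0.032), so no block was used. Replicates differed by more than sampling noise (chi-square per degree of freedom 6.11 to 9.75).

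Symbols came from the authors' table and RefSeq (32835 of 33602 genes had a RefSeq locus). Promoter letters are RefSeq's TAIR10.1, where 32831 of 32835 gene spans overlapped the authors' spans on the same strand. The members of the 47 gene lists and the naming rule were chosen with earlier results of these data known. Named were every tested gene of the PNET2 and NTL families, the 12 largest differences in each direction among called genes with a symbol, at least 5 CPM and no overlap between the lines, at most 4 genes of each list, by adjusted p, 10 fixed genes (PR1, PR2, PR5, ICS1, PAD4, EDS1, SAG13, PDF1.2a, VSP2 and FLC), genes absent in 1 line with at least 1 CPM in the other, and the longest runs of neighbours called in 1 direction. Members named outside it were chosen after their values were seen.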

Additional observations from a re-analysis of the deposited data

How the results depend on the processing

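No gene called between the lines was called in the opposite direction under any alternative run. The genes higher in NTL9-SRDX numbered 1874 as reported, and 1899 by DESeq2's Wald test, 1868 with DESeq2 size factors, 1930 with only the 4 libraries of the lines, and 1771 with the replicate block (1750 of them shared); the genes higher in NTL12-SRDX numbered 1437, 1415, 1437, 1581 and 1354 (1340 shared). With a mean of at least 5 CPM required, 54 and 212 genes passed 2-fold towards NTL9-SRDX and NTL12-SRDX in place of 100 and 373, fewer genes being tested. With no filter, 78 genes raised in pnet2_ab were higher in NTL9-SRDX in place of 50. With any 1 library left out, the genes higher in NTL9-SRDX ranged from 1086 to 2021 and by 2-fold or more from 74 to 137, and the genes higher in NTL12-SRDX from 857 to 1511 and by 2-fold or more from 299 to 383. In the same fits, genes raised in pnet2_ab and higher in NTL12-SRDX ranged from 589 to 863, genes lowered in pnet2_ab and higher in NTL9-SRDX from 849 to 1346, genes raised and higher in NTL9-SRDX from 24 to 63, and genes lowered and higher in NTL12-SRDX from 23 to 53. A line left with 1 library was assumed to vary like the other groups. The replicate block, used on numbers that do not pair samples, lost the calls of NAC103 (adjusted p = 0.054), PARP2 (0.052) and NPR3 (0.056) and gained that of VSP2 (0.033), among the named genes. With 2 libraries per line, differences below a log2 fold change of 0.193 were not called.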
